A study of Homo sapiens with 4 samples.

Results

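The integrated stress response genes were followed by ribosome profiling, which sequences the mRNA fragments covered by ribosomes (ribosome protected fragments, RPFs). The 10 genes were chosen by name, from their known roles in this response, by a rule that used no measured value: the upstream open reading frame (uORF) mRNAs ATF4, ATF5, DDIT3, PPP1R15A and PPP1R15B, and the targets TRIB3, CHAC1, ASNS, SESN2 and DDIT4. Of these, 8 were listed in at least 1 of the 4 deposited tables and 6 in all 4, out of 9271 transcripts listed in any table and 8568 in all. The cells were HEK293T, a line of human embryonic kidney origin with the SV40 large T antigen. Untreated cells (2 replicates, A and B; 0 µg/mL) were compared with cells given the aminoglycoside G418 at 500 µg/mL for 24 hours (2 replicates, A and B). All 4 libraries came from the same cell line, and all lysates were made with cycloheximide. G418 binds the decoding center of the ribosome and promotes the reading of stop codons as sense codons. The study measured this readthrough genome-wide, and the question here is what RPFs on the stress response mRNAs did in the same cells. Ribosome profiling alone was used here, so a change in mRNA amount and a change in its translation cannot be told apart.

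In the integrated stress response, 4 kinases phosphorylate the initiation factor eIF2, which slows the start of translation on most mRNAs. A few mRNAs with uORFs then give more of their main protein, because the scanning ribosome passes an inhibitory uORF before it is ready to start again. The best known is ATF4, a transcription factor that turns on genes for amino acid synthesis and transport, redox balance and, with its target DDIT3 (CHOP), cell death. PPP1R15A (GADD34) and PPP1R15B (CReP) guide a phosphatase back to eIF2.

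Recovered reads on mRNAs numbered 6082600 and 2440204 for untreated A and B, and 5677910 and 4763858 for G418 A and B, so values of untreated replicate B are the least precise. Over all transcripts, 5′UTR counts made up 4.41% to 5.29% of 5′UTR plus coding sequence (CDS) counts in the 4 libraries. Of 5 marker genes of the kidney line, VIM, KRT18 and KRT8 were listed in every table, PAX2 in the G418 tables and CDH2 in none. Of 8 markers of other cell types, COL1A1 alone was listed, at 3.59 to 5.54 RPKM. KRT8, at 1.45 to 2.13 RPKM, and PAX2, at 1.04 and 1.36 in G418 A and B, lay below it. A transcript is in a table where its CDS reached 1 RPKM (reads per kilobase of region, scaled to library size), with 5 or more codons ahead of the first stop codon in frame in the 3′UTR (3′TC). PPP1R15B and DDIT4 were in no table and were not analysed here. In the GENCODE version 44 annotation their canonical transcripts have 4 and 3 codons before the first 3′TC.

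The upstream reading frames were located first, because the 5′UTR reads are set against them below. The annotated 5′UTRs of ATF4 (hg38, chromosome 22, 39519695 to 39522683, plus strand) and of ATF5 (chromosome 19, 49928702 to 49933298, plus strand) each hold 6 upstream AUGs. At least as many were found in 4.52% of the 7198 transcripts whose annotated structure matched the tables. These counts hold for the single transcript used per gene. Other annotated starts of ATF4 and ATF5 lie downstream of some of these AUGs, so shorter transcripts would hold fewer. In both mRNAs the fifth opens a frame of 3 codons and the sixth a frame of 59 codons that runs past the start codon of the main protein, in another frame. The short frame begins 196 nt before the CDS in ATF4 and 246 nt before it in ATF5. The long frame begins 97 nt and 124 nt before it, and overlaps the CDS by 83 nt and 56 nt. Of these overlaps, 65 nt in ATF4 and 38 nt in ATF5 lie in the counted part of the CDS, so reads there count as CDS reads whichever frame the ribosome was in. The 30 nt around these AUGs and around the main start codons are shown because the comparison of 5′UTR and CDS reads turns on them, with the AUG (written ATG) in capitals.
ATF4 AUG 5, 3 codons, chr22:39520633-39520662: gggtccacggccaccATGgcgtattagggg
ATF4 AUG 6, 59 codons, across an exon junction within chr22:39520732-39521363: ccagcggcttaagccATGgcgcttctcacg
ATF4 main start, chr22:39521431-39521460: gcaaagcaccgcaacATGaccgaaatgagc
ATF5 AUG 5, 3 codons, chr19:49929259-49929288: tgcgtagccccggccATGgctctgtagcct
ATF5 AUG 6, 59 codons, across an exon junction within chr19:49929381-49930741: ctccttgctgcagccATGgagtcttccact
ATF5 main start, chr19:49930836-49930865: acctgtgctacagccATGtcactcctggcg

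The other mRNAs carry fewer upstream AUGs. DDIT3 (chromosome 12, 57516593 to 57520514, minus strand) has 3, the last of which opens a frame that overlaps the CDS by 190 nt, although its 5′UTR in this annotation differs in length from that in the tables. PPP1R15A (chromosome 19, 48872421 to 48876058, plus strand) has 2, with frames of 22 and 26 codons that end before the CDS. ASNS (chromosome 7, 97852128 to 97872131, minus strand) has 3 and SESN2 (chromosome 1, 28259518 to 28282491, plus strand) has 1, none reaching the CDS. CHAC1 (chromosome 15, 40953471 to 40956512, plus strand) has none. TRIB3 (chromosome 20, 380760 to 397559, plus strand) was left out of the map, because the annotated 5′UTR is not that of the tables.

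**Figure D1:**
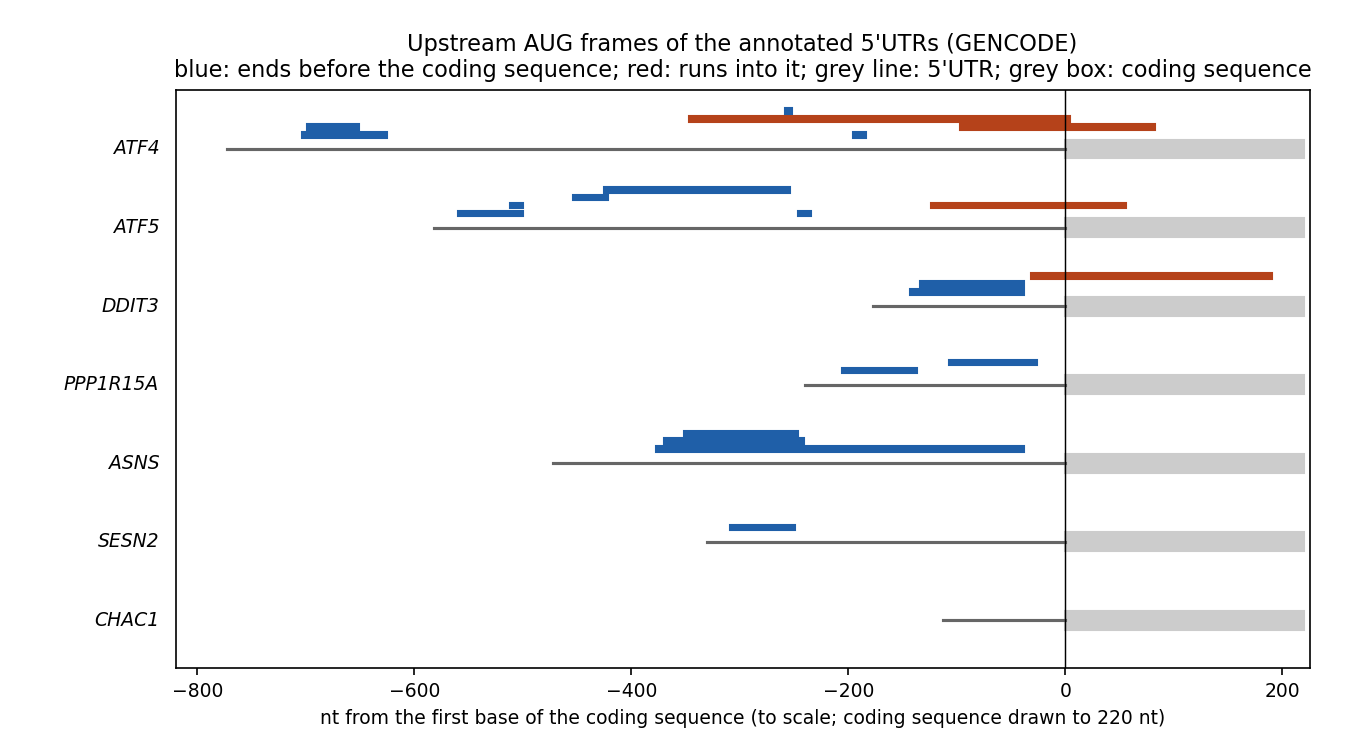
Map of the upstream AUG frames of 7 mRNAs, in nucleotides from the first base of the CDS and to scale, from GENCODE version 44. Blue bars are frames that end before the CDS and red bars run into it: ATF4 has 2 of these (by 4 and 83 nt), ATF5 has 1 and DDIT3 has 1, drawn on a 5′UTR that differs in length from the table's.

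Most reads of the uORF mRNAs lay upstream of the CDS. ATF4 had 1614 and 655 5′UTR counts against 181 and 85 CDS counts in untreated cells (A and B). In G418-treated cells it had 1846 and 1334 5′UTR counts against 328 and 326 CDS counts. The 5′UTR thus held 89.9% and 88.5% of ATF4 counts in untreated cells and 84.9% and 80.4% in G418-treated cells. Every untreated value was above both G418 values. With the counts of both replicates summed, ATF4 had the 4th highest 5′UTR share of 8461 untreated transcripts and the 6th highest of 8517 G418 transcripts with at least 20 counts, where the medians were 2.93% and 2.47%. Per length, the 5′UTR density of ATF4 was 11.9 and 10.3 times its CDS density untreated, and 7.48 and 5.44 times with G418. These values rest on the 5′UTR length of the single transcript used. The tables do not give positions within the 5′UTR, so reads cannot be assigned to single uORFs.

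ATF5, a transcription factor of the same family, had a similar distribution at far fewer reads. Its 5′UTR held 63, 30, 59 and 63 counts in untreated A, untreated B, G418 A and G418 B, and its CDS 19, 10, 14 and 16. The shares were 76.8% and 75.0% untreated and 80.8% and 79.7% with G418. Their exact 95% binomial intervals all overlap, from 58.8% at the lowest bound to 89.1% at the highest. DDIT3, which promotes cell death under lasting stress, had 32, 20 and 18 5′UTR counts against 5, 7 and 7 CDS counts in untreated A, G418 A and G418 B, shares of 86.5%, 74.1% and 72.0%. It was absent from the table of untreated replicate B, where 1 CDS read or fewer would place it below the lowest density. PPP1R15A was listed in replicates A alone, with 33 5′UTR and 21 CDS counts untreated and 23 and 22 with G418, shares of 61.1% and 51.1%. The G418 and untreated intervals of DDIT3 and of PPP1R15A overlapped, and neither gene could be tested across the 4 libraries.

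Reads upstream of the CDS were the minority on the targets. The 5′UTR share was 2.67% to 3.79% for ASNS (asparagine synthetase), 10.2% to 17.0% for SESN2 (sestrin 2, an inhibitor of mTORC1) and 4.05% to 11.1% for TRIB3 (a pseudokinase that binds AKT and ATF4). CHAC1, which degrades glutathione, had 0, 1, 0 and 4 5′UTR counts, and 0 of 15 and 0 of 18 counts allow shares of up to 21.8% and 18.5% by the exact interval. As a description over all matched transcripts, the median 5′UTR share in untreated cells was 1.39% for the 3838 with no upstream AUG and 8.17% for the 2754 with 1 or more. These intervals cover counting error only.

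**Figure D2:**
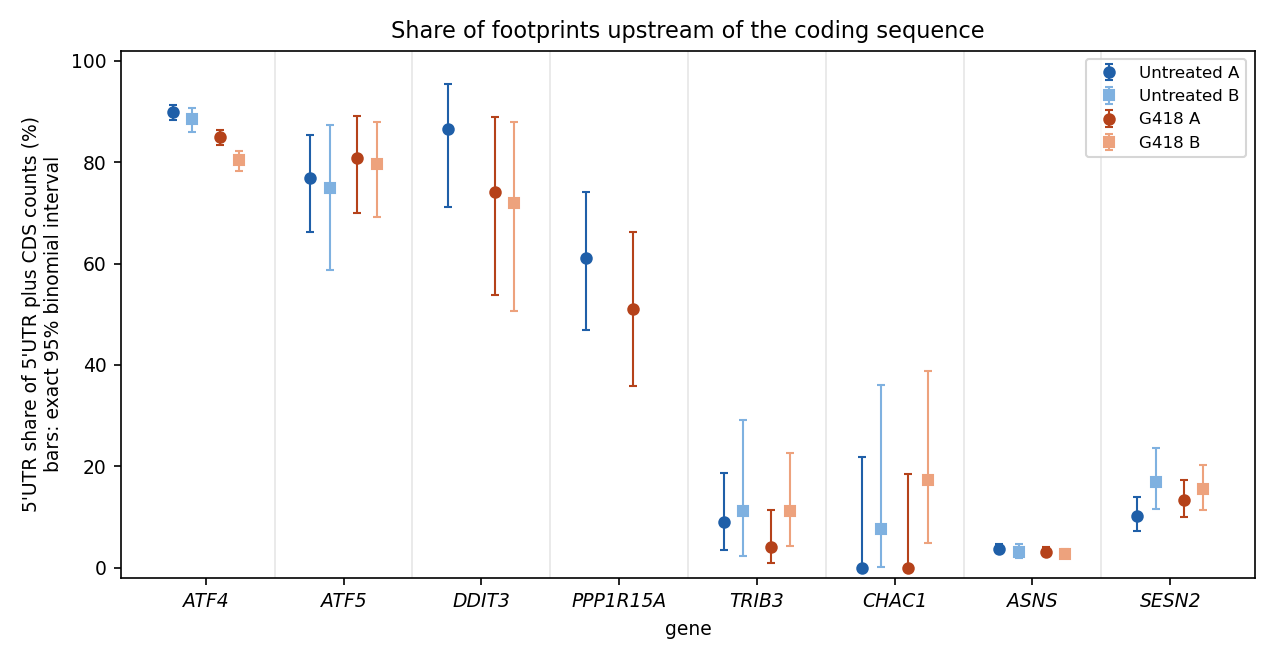
Share of 5′UTR counts in 5′UTR plus CDS counts, in percent, for the 8 listed genes in each library, with exact 95% binomial intervals. ATF4 lies at 80.4% to 89.9% with both untreated replicates highest, ATF5, DDIT3 and PPP1R15A lie at 51.1% to 86.5%, and the other genes reach at most 17.4%.

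CDS reads were compared next. They are not a measure of the encoded protein alone where an upstream frame overlaps the CDS. That overlap covers 65 of 1023 counted CDS nt in ATF4, 38 of 816 in ATF5 and 172 of 477 in DDIT3. How many CDS reads came from these upstream frames was not tested. CDS reads of ATF4 rose, and the 5 other genes that could be tested did not pass the threshold. ATF4 had 20.3 and 21.9 RPM (reads scaled to library size) in its CDS untreated and 39.2 and 42.6 with G418. Both G418 values were above both untreated values. The log2 fold change was 0.91 (SE 0.14), or 1.88-fold (edgeR quasi-likelihood test, adjusted p = 0.000101), the 109th highest of 8494 transcripts tested. Of these, 5.31% rose and 3.21% fell, and the median log2 fold change was 0.00. Among the 6 genes tested here, 1 rose and 0 fell, with a median of -0.00. The counts were the same at an unadjusted edgeR p under 0.05, where 1079 of all 8494 transcripts rose and 861 fell. They were also the same by DESeq2, which gave no adjusted p-value for ATF5, TRIB3 and CHAC1. Without G418 replicate B, the log2 fold change of ATF4 was 0.79 and the call was lost (adjusted p = 0.061). It was kept under the other 9 alternatives, at 0.76 to 1.01. GENCODE lists 4 ATF4 pseudogenes, and a read that mapped to several places was kept at a single one, so part of the reads may have been placed elsewhere.

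For the targets, CDS reads gave no call. ASNS had 213.4 and 185.9 RPM untreated and 195.6 and 175.8 with G418, and the 2 ranges overlapped (log2 fold change -0.18, SE 0.09, adjusted p = 0.228). The 95% interval of the change, a normal approximation from the SE, was -0.36 to -0.00. It is narrower than the edgeR test implies, which gave an unadjusted p of 0.0539. The intervals below were made in the same way. Without untreated replicate B, the shallowest library, ASNS passed the threshold as lower (-0.22, adjusted p = 0.00324). SESN2 had 33.4 and 35.2 RPM untreated and 37.2 and 30.5 with G418, so the untreated values lay between the G418 values. Its log2 fold change was -0.07, with a 95% interval of -0.33 to 0.19. TRIB3 had 6.72 and 6.17 RPM untreated and 8.59 and 6.26 with G418, again with overlap (0.12, interval -0.32 to 0.56). CHAC1 had 1.68 and 3.09 RPM untreated and 2.27 and 2.48 with G418, and its log2 fold change of 0.07 had an interval of -0.68 to 0.81. ATF5 had 2.13 and 2.57 RPM untreated and 1.79 and 2.09 with G418 (-0.33, interval -1.07 to 0.41). CHAC1 and ATF5, with 10 to 19 counts per library, had the widest intervals of the 6 genes. DDIT3 had 0.560 RPM in untreated replicate A and 0.954 and 0.913 in the G418 replicates, from 5 to 8 reads each, and PPP1R15A had 2.35 and 2.74 in replicates A. GENCODE lists 4 ASNS pseudogenes as well.

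**Figure D3:**
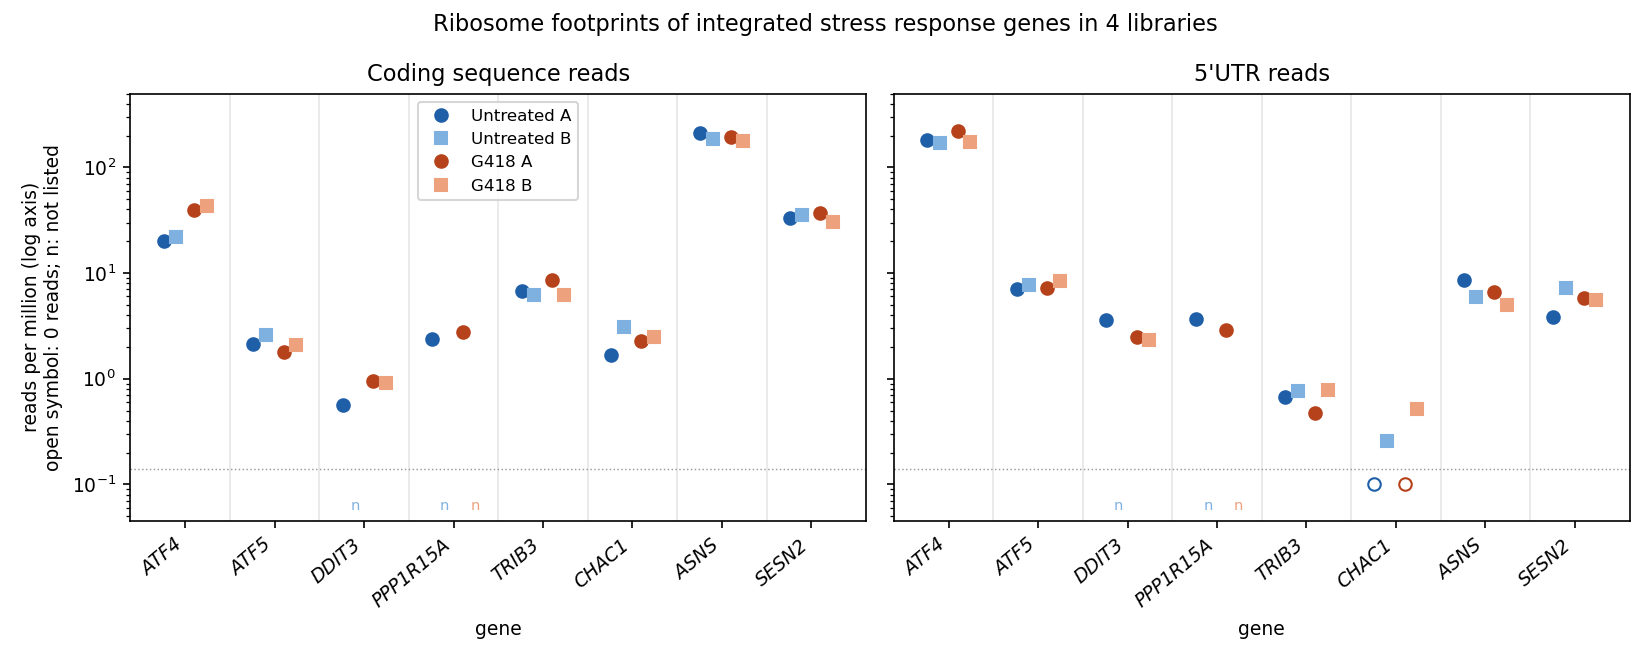
CDS and 5′UTR RPM of the 8 listed genes in each library, on a log axis. An open symbol marks 0 reads and n a gene that the table does not list. ATF4 CDS reads lie at 20.3 and 21.9 untreated and at 39.2 and 42.6 with G418, while its 5′UTR reads overlap between the groups.

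Ordered by CDS density in untreated cells, ASNS came first at 120.8 ± 11.8 RPKM (SD, n = 2), then SESN2 at 24.3 ± 0.931, ATF4 at 20.6 ± 1.10, TRIB3 at 6.17 ± 0.371, CHAC1 at 3.75 ± 1.56 and ATF5 at 2.88 ± 0.384. PPP1R15A and DDIT3 had 1.18 and 1.17 RPKM in the single untreated table that lists them. CHAC1 and ATF5 did not differ beyond their spread. With G418, ATF4 stood at 40.02 ± 2.35 RPKM and SESN2 at 24.0 ± 3.36, so these genes changed places, while ASNS stayed first at 112.3 ± 8.49. In 5′UTR density, ATF4 was first of the 8 in every library, at 219.9 to 287.1 RPKM. With 2 libraries per group, an exact two-sided permutation test of a single value cannot go below p = 0.333, so none was used.

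To see which region moved, 5′UTR counts were tested with the scaling of the CDS counts. ATF4 had 180.9 and 168.7 5′UTR RPM untreated and 220.2 and 173.9 with G418, so that G418 replicate B lay between the untreated values. Its log2 fold change was 0.10 (SE 0.11, edgeR adjusted p = 0.75), and it was -0.02 without G418 replicate A. None of the 4 genes tested passed the threshold by edgeR, and 0 had an unadjusted p under 0.05. DESeq2 called none of them either, but gave no adjusted p-value for ASNS and SESN2. Over all transcripts, 0.226% of 4421 were higher and 2.76% lower, with a median of -0.13. The log2 fold changes of 5′UTR counts were -0.00 for ATF5, 0.09 for SESN2 and -0.45 for ASNS, with adjusted p-values of 0.999, 0.941 and 0.526.

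The ratio itself was then tested, with CDS counts as the offset. ATF4 had 8.92 and 7.71 5′UTR counts per CDS count untreated and 5.63 and 4.09 with G418, with no overlap. Its ratio fell by 0.77 on the log2 scale (SE 0.12, edgeR adjusted p = 0.00775), the 579th lowest fold change of 4181. Of 4181 transcripts tested, 1.39% were lower and 0.0% higher at this threshold, and the median log2 fold change was -0.21, so that of ATF4 lay -0.56 from the median. At an unadjusted p under 0.05, 76 transcripts were higher and 506 lower, and DESeq2 called 0 higher. The call for ATF4 depended on the model. The offset takes the CDS counts as fixed, so the SE of 0.12 and its p-value leave out their counting error. In one model of 5′UTR and CDS counts with an interaction term the change was -0.80 (SE 0.23, adjusted p = 0.210). With the 5′UTR counts scaled by their own TMM factors it was -0.60 (adjusted p = 0.113). The value lay below the median of all transcripts under each of the 10 alternatives, but its distance changed with single libraries. It was -0.28 without G418 replicate B, -0.31 without untreated replicate A, -0.78 without untreated replicate B and -0.84 without G418 replicate A, and the median itself ran from -0.35 to -0.10. SESN2 (0.17, SE 0.34, adjusted p = 0.868) and ASNS (-0.26, SE 0.29, adjusted p = 0.726) did not pass, and the other genes had too few reads.

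**Figure D4:**
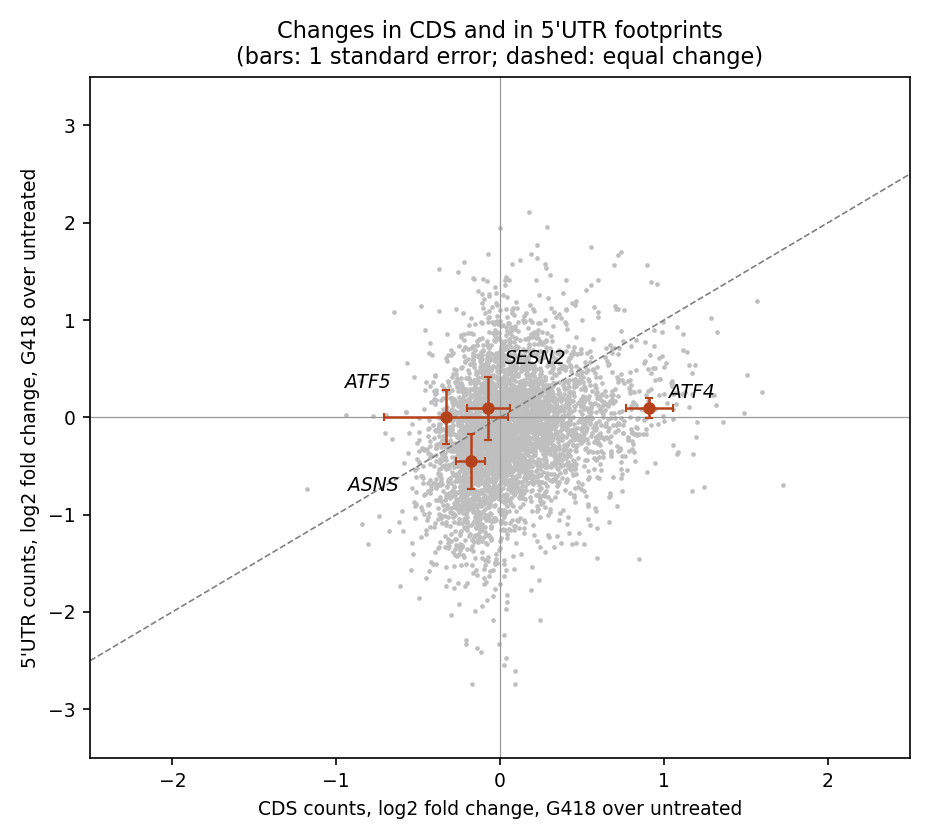
Log2 fold change of CDS counts (horizontal) against that of 5′UTR counts (vertical), G418 over untreated, for 4403 transcripts (grey), with ATF4, ATF5, ASNS and SESN2 in red and bars of 1 standard error. The dashed line marks an equal change in both regions. ATF4 lies at 0.91 in CDS and 0.10 in 5′UTR, and 1 transcript lies outside the axes.

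Readthrough was measured as the ribosome readthrough score (RRTS), the read density between the normal stop codon and the first 3′TC divided by the CDS density. SESN2 was the only one of the 10 genes with enough reads for the main test. It had 3 and 3 such reads untreated and 20 and 17 with G418, over 177 nt. The minimum of 10 such reads was summed over the 4 libraries, and SESN2 met it only through its G418 reads. This minimum favours transcripts that rise with G418, so the test and the share of transcripts that rose are a description. The RRTS of SESN2 was 0.0802 and 0.174 untreated and 0.511 and 0.579 with G418, with no overlap. The RRTS of SESN2 rose by 2.25 on the log2 scale (SE 0.60, edgeR adjusted p = 0.000413), where 82.6% of 2827 transcripts rose, 0.0707% fell and the median was 3.18. Without untreated replicate A it was 1.61 and did not pass (adjusted p = 0.0545). SESN2 ends in UGA followed by C. With the reads of both replicates summed, its RRTS ranked 254th of 759 transcripts with UGAC in G418-treated cells, where the median was 0.389, and 199th of 664 untreated, where the median was 0.0345. Its stop codon is shown with the stop and the next base in capitals.
SESN2 stop, chr1:28280785-28280814: acccgctacatgaccTGACtcctgagcagg

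The remaining genes had 0 to 2 reads in this region in any library. ATF4 ends in UAG followed by U, whose sequence is given for comparison, and its first 3′TC lies 45 nt on. It had 0 and 0 reads there untreated and 2 and 1 with G418, where the CDS density would place 13.5 and 13.4. The RRTS was 0.148 and 0.0745 in the G418 replicates. At lower minima of 3 such reads and 32 mRNA reads, ATF4 could be tested, though it met them only through its G418 reads. Its log2 fold change was 3.24 (edgeR adjusted p = 0.316), where the median was 3.43. Where both replicates had 0 reads, the RRTS that 3 reads would give was taken as an approximate upper limit. For untreated ATF4 this limit was 0.275. Untreated ATF5 and TRIB3 also had 0, with limits of 0.782 and 0.497 by this rule, and their 0 reads with G418 gave limits of 0.731 and 0.348. Untreated CHAC1 had 0 as well, with a limit of 0.872. ASNS had 1 and 0 reads untreated and 1 and 1 with G418 over 12 counted nt, CHAC1 had 1 read in G418 replicate B alone, and DDIT3 had 1 in each G418 replicate. PPP1R15A had 1 read, in untreated replicate A. A difference was not detectable for these genes at this depth.
ATF4 stop, chr22:39522585-39522614: aagaaaagggtccccTAGTtgaggatagtc

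The wider pathway was described by lists. Of 35 other ATF4 target genes, 31 were in at least 1 table and 29 were tested in CDS counts: 3 rose and 4 fell, with a median log2 fold change of -0.13 against 0.00 for all transcripts, of which 5.31% rose and 3.21% fell. The 3 that rose were CEBPG, a C/EBP transcription factor that pairs with ATF4, at 0.56 (SE 0.17, edgeR adjusted p = 0.0318), HERPUD1, a part of ER-associated degradation, at 0.41, and SLC7A5, the light chain of a large neutral amino acid transporter, at 0.36. Of the 4 that fell, ALDH18A1, which starts proline synthesis, fell by 0.52 on the log2 scale (SE 0.09, edgeR adjusted p = 0.000238), PHGDH, which starts serine synthesis, fell by 0.39, and SHMT2, the mitochondrial serine hydroxymethyltransferase, fell by 0.35. The fourth was AARS, the alanyl-tRNA synthetase, at -0.33. With library totals for scaling the list gave 4 rises and 3 falls, where 809 of all 8494 transcripts rose and 139 fell, with a median of -0.05 against 0.09 for all transcripts. No member of the list passed without G418 replicate A or without G418 replicate B, and DESeq2 called 0 rises and 4 falls, where it called 109 and 134 over all transcripts.

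Of the kinases that phosphorylate eIF2, EIF2AK2 (PKR, which senses double-stranded RNA) was in the tables, and its CDS counts gave 0.05 (SE 0.11, adjusted p = 0.835). EIF2AK1 (HRI), EIF2AK3 (PERK) and EIF2AK4 (GCN2) were not analysed here. Of 8 subunits of eIF2 and its exchange factor eIF2B, 7 were tested, at -0.29 to 0.15, and none passed by edgeR or DESeq2. At an unadjusted edgeR p under 0.05, 1 was lower, as were 861 of all 8494 transcripts. The median of these subunits was -0.14. It was -0.04 without untreated replicate A and -0.16 without untreated replicate B. Of 9 other uORF mRNAs known to resist eIF2 phosphorylation, 7 were tested and 1 rose, beside the 5.31% of all transcripts. This was UCP2, a mitochondrial carrier, at 0.66 (SE 0.17, edgeR adjusted p = 0.0113). UCP2 had 483, 160, 482 and 398 5′UTR counts and 105, 56, 173 and 161 CDS counts in untreated A, untreated B, G418 A and G418 B, and its ratio changed by -0.52 without passing (adjusted p = 0.218). Its CDS call was lost by DESeq2 at 0.62, without G418 replicate A at 0.71, without G418 replicate B at 0.57 and without untreated replicate A at 0.39, with adjusted p-values of 0.185 to 0.390. SLC35A4, a second mRNA of this list with most reads upstream, had 447, 217, 469 and 384 5′UTR counts and 12, 11, 13 and 15 CDS counts, and its CDS counts gave -0.10 (SE 0.43, adjusted p = 0.917). It was singled out after its values were seen. Of 17 targets of the XBP1 and ATF6 branches of the unfolded protein response, 14 were tested, of which 1 rose and 1 fell, beside 5.31% and 3.21% of all transcripts. DNAJC3, which encodes an inhibitor of PKR and PERK, rose by 0.39 on the log2 scale (adjusted p = 0.0318) and SEC61B, a subunit of the ER translocon, fell by 0.68 (adjusted p = 3.14e-05). The median of these 14 was 0.15. Library totals for scaling gave 4 rises and 1 fall, with a median of 0.24. With that scaling, 809 of all 8494 transcripts rose and 139 fell, with a median of 0.09. DNAJC3 did not pass by DESeq2 (adjusted p = 0.224), nor without G418 replicate A or G418 replicate B.

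**Figure D5:**
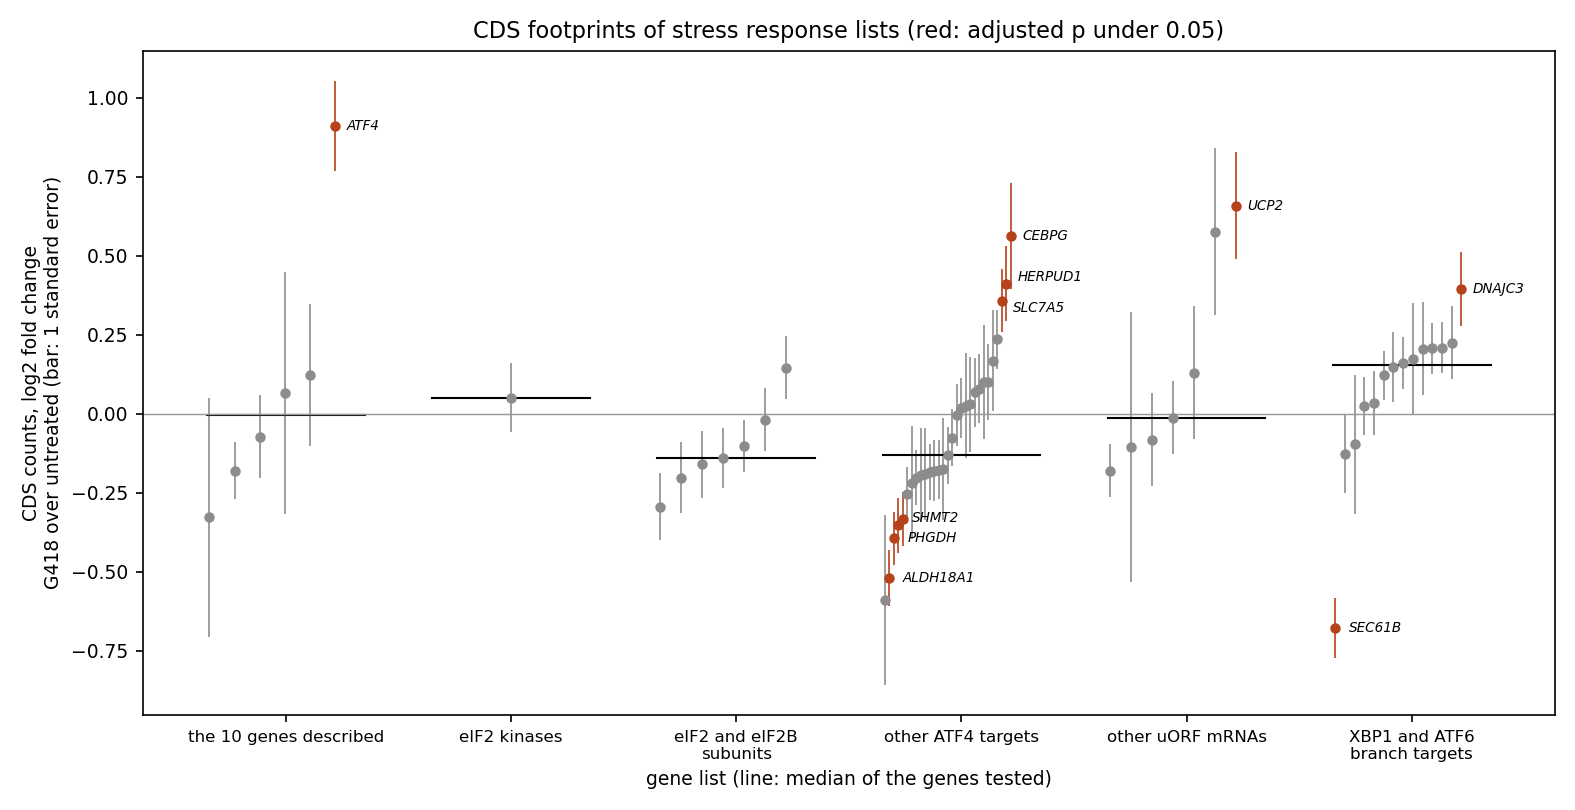
Log2 fold change of CDS counts, G418 over untreated, for each tested gene of 6 lists, with bars of 1 standard error, a line at each list's median and genes past the threshold in red. ATF4 lies highest at 0.91, and the other ATF4 targets spread around a median of -0.13 with 3 rises and 4 falls.

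The transcripts with a CDS pattern most like ATF4 were HRAS, PRKX, LMBR1L, CNOT6 and SLC35E2A, by the Euclidean distance of centred log2 CDS counts, scaled to library size, over the 4 libraries among 8493 transcripts. The distances ran from 0.0389 to 0.0792. Their 5′UTR shares in untreated replicate A were below the 89.9% of ATF4. They were 28.5% for HRAS, a small GTPase, 32.4% for PRKX, 43.8% for LMBR1L, 13.9% for CNOT6, a deadenylase subunit, and 74.4% for SLC35E2A. As with ATF4, the shares of HRAS, LMBR1L and SLC35E2A were lower in both G418 replicates than in both untreated replicates. For SLC35E2A they were 74.4% and 68.8% untreated and 59.6% and 58.5% with G418. The shares of PRKX and CNOT6 overlapped between the groups. These 5 were picked by the same CDS values, which also enter the 5′UTR share, so their changes are a description. Of the 4181 transcripts tested in the ratio, 66.2% had a lower ratio with G418, whether or not they passed. SLC35E2A had 10 and 5 untreated CDS counts, and its CDS rise did not pass (edgeR adjusted p = 0.0800).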

How the data were processed

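Per the labels, lysates were digested with RNase I, and fragments of 15 to 35 nt were purified. The authors aligned reads to hg38, permitting reads with several matches at a single place, and counted full-length RPFs on a single transcript per gene; the labels name CASAVA 1.8 and STAR. The deposited counts are unnormalized, the deposited RPM values are scaled to library size, the deposited RPKM values divide these by region length, and the authors' ratio columns are RRTS and 3′UTR occupancy. The deposited 5′UTR density was treated as a score and not used; 5′UTR RPKM was computed from RPM and length. All RPM values (100%, tolerance 0.01 reads) were whole multiples of 1 read. Deposited CDS counts fell 1 short of the recovered reads for 1.30% and 0.113% of values in untreated A and B. In G418 A and B this was 99.9% and 38.0%. For 5′UTR counts it was 1.97% and 0.509% untreated and 77.5% and 21.5% with G418. The shortfall thus differs between the groups. With recovered reads, the median log2 fold change was -0.17 instead of -0.21 in the ratio and -0.09 instead of -0.13 in 5′UTR counts. ATF4 was then at -0.78 and 0.10.

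CDS counts were tested with edgeR's quasi-likelihood test (TMM, low-count filter), 5′UTR counts with the CDS scaling and at least 20 reads, the ratio with log(CDS count + 0.5) as offset and at least 128 CDS reads, and RRTS on recovered reads with at least 10 such reads and 128 mRNA reads per condition. The threshold was a Benjamini-Hochberg adjusted p-value of 0.05 over all transcripts. Replicates are 2 per group, and what the letters share is not stated, so p-values measure the spread between these libraries. In simulated data, 2-fold changes were recovered for 81.5% of changed genes in CDS counts (8494 genes, 7.11% false calls), 32.1% in the ratio (4181 genes, 4.17%) and 35.5% in 5′UTR counts (4421 genes, 5.30%), and 4-fold changes for 49.1% in RRTS (2827 genes, 1.64%). The simulated counts had a single fixed dispersion, and the ratio and RRTS kept the observed CDS counts as fixed offsets. False calls from CDS counting error or from a larger spread between libraries are therefore not covered. Alternatives were DESeq2, recovered reads, other scalings and minima, an interaction model, a replicate block and leaving out each library. The rule for the 10 genes uses names alone, but the genes and lists were chosen with earlier results of these data known, so the choice was not blind to them. Named from other lists are the 3 largest rises and falls past the threshold that moved the same way in both letters, all 4 kinases, and the 5 transcripts most like ATF4. Sequences come from the hg38 genome with GENCODE 44, and 7198 of 9271 transcripts matched its structure. The tools were Python 3.11.15, DESeq2 1.42.0, edgeR 4.0.16 and R 4.3.3.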

Additional observations from a re-analysis of the deposited data

How the results depend on the processing

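Every setting below counts transcripts past an adjusted p-value of 0.05, higher and lower in G418. CDS calls numbered 109 and 134 by DESeq2 and 809 and 139 with library totals for scaling. Ratio calls numbered 6 and 24 with the 5′UTR counts' own scaling and 0 and 5 in the interaction model, with 0 of the 10 genes called lower in either and ATF4 at -0.60 and -0.80. Higher ratio calls numbered 1 with recovered reads and 3 with lower minima. 5′UTR calls numbered 0 and 61 by DESeq2, and 53 higher with their own scaling. RRTS calls numbered 1372 and 0 by DESeq2, and 10 lower with the whole 3′UTR. The replicate block gave 618 and 452 CDS calls, 20 and 260 ratio calls and 31 and 234 5′UTR calls, with the same calls among the 10 genes as without it and 1 eIF2 or eIF2B subunit called lower. Deviations of A from the group means correlated between conditions at 0.136 over 8494 transcripts and at 0.261 over the 5749 with a mean CDS count of at least 100. The labels do not say what a letter shares, so whether letters pair the libraries was not settled. Leaving out each library gave 58 to 999 and 15 to 1083 CDS calls, 0 to 36 and 8 to 388 ratio calls, 0 to 75 and 0 to 295 5′UTR calls, and 1496 to 2265 and 1 to 2 RRTS calls. The lone library was assumed to vary like the other group. Among the 10 genes this gave 0 to 1 higher and 0 to 1 lower in CDS and 0 to 1 higher in RRTS, with SESN2 RRTS at 1.61 to 2.70. ATF4 ranged over 0.76 to 1.01 in CDS, -1.02 to -0.56 in the ratio and -0.023 to 0.21 in 5′UTR counts. Uncalled values changed sign. CDS values were -0.062 and -0.031 for CHAC1 by DESeq2 and with the block, and 0.011 for SESN2 with library totals. 5′UTR values of ATF5 were 0.023 with recovered reads and 0.15 with their own scaling. Without single libraries CHAC1 ranged over -0.55 to 0.44, SESN2 over -0.19 to 0.0058 and TRIB3 over -0.060 to 0.27 in CDS, SESN2 over -0.28 to 0.55 in the ratio, and SESN2 over -0.48 to 0.56 and ATF5 over -0.18 to 0.15 in 5′UTR counts. The cause was not tested. Depth limits DDIT3, PPP1R15A, CHAC1 and ATF5 most.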
